A study of Mus musculus with 16 samples.

Results

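A set of 9 genes of vitamin A handling was followed through 5 states of mouse hepatic stellate cells. They are Lrat, Rbp4, Bco1, Stra6, Crabp2, Dhrs3, Rdh10, Aldh1a1 and Aldh1a2. Each was read from the probe sets that the platform annotation assigns to that symbol alone, and where a gene had several, the one with the highest mean over the 16 arrays was kept. This gave 9 of 18193 genes on the array, of which 5 (Lrat, Bco1, Dhrs3, Rdh10 and Aldh1a1) were among the 7823 genes that reached a log2 level of at least 5 on at least 2 arrays and were tested. The other 4 stayed below that filter. A gene enters through the arrays on which it is high, so the counts below describe the 5 genes that passed and not all 9.

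Every preparation came from male Balb/c mice aged 8 to 10 weeks, was enriched by density centrifugation and was depleted of macrophages through the surface protein that Adgre1 encodes. Coculture (2 arrays) means stellate cells kept for 5 days on plastic in medium with 10% fetal bovine serum and sharing that medium with Kupffer cells, the liver's resident macrophages, across a transwell insert. Culture (3 arrays) means the same 5 days without Kupffer cells. The bile duct ligation group (3 arrays) came from mice whose bile duct had been tied for 15 days. The CCl4 group (3 arrays) came from mice given 4 injections of carbon tetrachloride, a hepatotoxin, at 0.5 µl per g body weight. Quiescent cells (5 arrays) came from untreated mice. Cells of the quiescent and both injury groups had been plated for 24 h, so no group was freshly isolated. The design text lists 3 coculture samples, and 1 of them was not analysed here. The labels do not state which preparations were separate animals or pools, so the p-values reflect the spread among these preparations alone, and that spread can be technical.

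Stellate cells hold most of the body's vitamin A as retinyl esters in lipid droplets, and they are known to lose these droplets when they turn into matrix-producing myofibroblasts. Retinol reaches cells bound to a plasma carrier, is esterified for storage, and can be oxidised first to retinal and then to retinoic acid. Retinoic acid binds nuclear receptors of the RAR family, which pair with RXR partners and switch on genes that include several of its own receptors and degrading enzymes.

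Expression levels are the authors' deposited log2 values, on which a difference of 1 is a 2-fold difference. On each array the median probe set lay between 2.00 and 2.06, so levels near 2 are close to the background of the method. Between 6803 and 7037 genes per array reached log2 5. Pearson correlations between arrays ran from 0.929 to 0.983 within groups and from 0.773 to 0.969 between groups. The stellate cell label was checked with 12 markers, whose mean level lay between 7.24 and 9.85 on every array. Desmin (Des) stood between 7.61 and 9.23 and the PDGF receptor gene Pdgfrb between 9.86 and 11.58. The coculture arrays were the least alike in these markers, at 7.24 on replicate 2 and 8.75 on replicate 3, and the collectin gene Colec10 was at 3.76 on replicate 2 and 8.50 on replicate 3. Adgre1, the gene of the protein used for macrophage depletion, was between 1.23 and 2.56 on all arrays. The mean of 13 macrophage markers was 2.06 to 2.20 in coculture, 1.60 to 1.91 in culture, 2.43 to 3.53 after bile duct ligation and 2.35 to 2.75 after CCl4, against 1.97 to 2.23 in quiescent cells. Among them Cd68, a lysosomal gene, stood higher, at 7.81 to 7.82 in coculture, 2.57 to 4.88 in culture, 5.57 to 7.47 after bile duct ligation and 6.70 to 7.71 after CCl4, against 6.06 to 7.77 in quiescent cells. The complement gene C1qb was at 2.93 to 3.43 after bile duct ligation, against 1.93 to 2.38 in quiescent cells. Hepatocyte markers moved with injury, as described beside Rbp4. In bulk RNA, fewer cells of a type and less RNA per cell cannot be told apart.

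In 5 day cultures 4 of the 5 tested genes rose against quiescent cells and 1 fell. Of all tested genes, 18.5% were called higher and 23.5% lower in that comparison. Aldh1a1, Lrat, Bco1 and Dhrs3 rose, while Rdh10 fell. After bile duct ligation Bco1 and Aldh1a1 fell and Dhrs3 rose, where 8.83% of all tested genes were called lower and 8.03% higher. The Bco1 and Aldh1a1 calls were lost without bile duct ligation replicate 2, and in a fit to the compared groups alone. A test of any difference among the 5 groups called all 5 tested genes (limma, adjusted p between 7.18e-06 and 0.0185), where 63.0% of all tested genes were called. Called means a Benjamini-Hochberg adjusted p under 0.05 over the 7823 genes, from one limma fit to all 16 arrays. The comparisons with quiescent cells share the same 5 quiescent arrays and are given side by side.

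**Figure D1:**
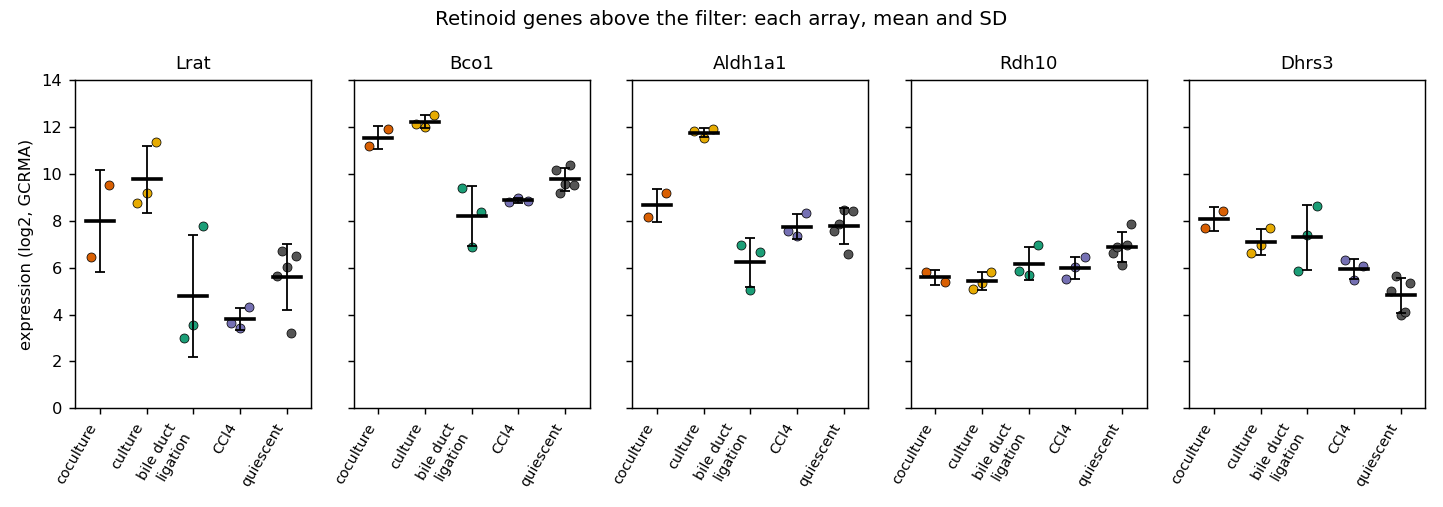
Expression level (log2) of the 5 retinoid genes above the filter on each of the 16 arrays. Points are arrays, long bars are group means and whiskers are SD, with coculture, culture, bile duct ligation, CCl4 and quiescent cells from left to right. The 3 culture arrays of Aldh1a1 lie between 11.53 and 11.90, above every other array.

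Lrat encodes lecithin retinol acyltransferase, the enzyme that makes the stored retinyl esters. Its levels in coculture were 6.44 and 9.53, and in culture 8.73, 9.17 and 11.36. After bile duct ligation they were 3.02, 3.54 and 7.77, after CCl4 3.65, 3.44 and 4.32, and in quiescent cells 5.63, 6.70, 6.02, 3.22 and 6.50. The culture arrays all lay above the quiescent arrays, whereas every pair of groups next to each other in the order of means overlapped. Quiescent replicate 4 was lower than the other quiescent arrays, and bile duct ligation replicate 3 was far above the other arrays of its group.

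Group means of Lrat were 7.98 ± 2.18 (SD, n = 2) in coculture and 9.75 ± 1.41 (SD, n = 3) in culture, against 5.61 ± 1.4 (SD, n = 5) in quiescent cells. The rise in culture was 4.14 ± 1.04 (log2 difference ± SE, limma adjusted p = 0.00515), or 17.6-fold. With 3 arrays left out at once (culture replicate 3, CCl4 replicate 3 and quiescent replicate 4) it was 2.73 and no longer called (limma adjusted p = 0.0697). The coculture difference from quiescent cells, 2.37 ± 1.19, was not called (limma adjusted p = 0.128). Neither were those after bile duct ligation, -0.84 ± 1.04 (limma adjusted p = 0.634), and CCl4, -1.81 ± 1.04 (limma adjusted p = 0.234). A second Lrat probe set had lower group means, 6.14 in coculture, 8.33 in culture, 4.30 after bile duct ligation, 3.58 after CCl4 and 4.46 in quiescent cells, and also rose in culture (log2 difference 3.86 ± 0.90, limma adjusted p = 0.00324).

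Bco1 encodes the oxygenase that cleaves beta-carotene into retinal, the step by which plant provitamin A enters the pathway. Its levels were 11.18 and 11.89 in coculture and 12.13, 11.97 and 12.51 in culture. They were 9.40, 6.86 and 8.35 after bile duct ligation and 8.78, 8.98 and 8.85 after CCl4, against 10.14, 9.17, 9.56, 10.38 and 9.51 in quiescent cells. Culture, coculture, quiescent and CCl4 cells followed in that order from high to low with no overlap between neighbours. The bile duct ligation arrays were the most scattered and overlapped both the CCl4 and the quiescent range.

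Bco1 averaged 12.21 ± 0.28 (SD, n = 3) in culture and 11.54 ± 0.50 (SD, n = 2) in coculture, against 9.75 ± 0.49 (SD, n = 5) in quiescent cells. It rose by 2.45 ± 0.41 in culture (log2 difference ± SE, limma adjusted p = 0.000264) and by 1.78 ± 0.47 in coculture (limma adjusted p = 0.00792). The coculture call was lost without coculture replicate 3 (log2 difference 1.42, limma adjusted p = 0.108). After bile duct ligation Bco1 was at 8.20 ± 1.28 (SD, n = 3) and fell by 1.55 on the log2 scale (SE 0.41, limma adjusted p = 0.0162). That fall rested on bile duct ligation replicate 2, without which the log2 difference was -0.88 (limma adjusted p = 0.0968). It was also not called in a fit to the bile duct ligation and quiescent arrays alone, at the same size (limma adjusted p = 0.0614). Bile duct ligation replicate 2 also had the highest mean of 13 macrophage markers, 3.53 against 2.77 and 2.43 on the other arrays of its group and 1.97 to 2.23 in quiescent cells. Its mean of 10 sinusoidal endothelial markers was 2.94, against 2.17 and 2.21 on the other arrays of its group and 1.96 to 2.1 in quiescent cells. The part of these cells in the result was not tested. In the CCl4 group, at 8.87 ± 0.10 (SD, n = 3), the log2 difference of -0.88 ± 0.41 was not called (limma adjusted p = 0.14), although no CCl4 array reached the lowest quiescent one. It was called without bile duct ligation replicate 2 (limma adjusted p = 0.0381) and in a fit to the CCl4 and quiescent arrays alone (limma adjusted p = 0.0339).

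RefSeq promoter windows, 250 bases before to 50 bases after a gene's start on GRCm38.p6, were searched on both strands for the direct repeats to which RAR and RXR pairs are known to bind. A half-site was AGGTCA or one of 3 variants, of which the first was GGGTCA, the next was AGTTCA and the last was GGTTCA. The motif was any 2 half-sites in a row in the same direction with 1, 2 or 5 bases between them. Over all 32851 windows such a repeat was present in 0.222% with a spacer of 1, in 0.268% with a spacer of 2 and in 0.0974% with a spacer of 5. Of the 9 genes, 7 had an entry, with 14 windows in all, and 1 window held a match. It belongs to Bco1 and lies at chr8:117095615-117095914 on the plus strand. The sequence is shown because it is the one member window with such a repeat, with the match, a spacer of 1 read on the opposite strand from -56 to -44, in capitals.
Bco1: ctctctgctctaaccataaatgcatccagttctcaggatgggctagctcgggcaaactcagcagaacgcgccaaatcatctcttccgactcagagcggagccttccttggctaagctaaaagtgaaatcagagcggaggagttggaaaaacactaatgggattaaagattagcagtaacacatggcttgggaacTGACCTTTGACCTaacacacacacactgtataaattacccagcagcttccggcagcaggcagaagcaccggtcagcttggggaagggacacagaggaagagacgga
The match describes the letters of this window and is no evidence of a binding site. The windows of Lrat, Dhrs3, Stra6, Aldh1a1, Aldh1a2 and Rbp4 held none of the searched repeats. Rdh10 and Crabp2 were not searched.

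Rdh10 and Dhrs3 catalyse opposite directions of one interconversion, Rdh10 oxidising retinol to retinal and Dhrs3 reducing retinal back to retinol. In these cells their levels also differed in opposite directions between culture and quiescence. Rdh10 was at 5.82 and 5.37 in coculture and at 5.09, 5.34 and 5.83 in culture. It was at 5.87, 5.67 and 6.96 after bile duct ligation and 5.51, 6.03 and 6.45 after CCl4, against 6.60, 6.86, 6.11, 6.97 and 7.87 in quiescent cells. All coculture and culture arrays lay below the lowest quiescent array, and both injury groups overlapped the quiescent range.

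Rdh10 averaged 5.42 ± 0.37 (SD, n = 3) in culture, against 6.88 ± 0.64 (SD, n = 5) in quiescent cells, and fell by 1.46 on the log2 scale (SE 0.37, limma adjusted p = 0.00515). In coculture, at 5.60 ± 0.32 (SD, n = 2), it fell by 1.29 (SE 0.42, limma adjusted p = 0.0248). The coculture call was lost without coculture replicate 2 (log2 difference -1.52, limma adjusted p = 0.0603) or replicate 3 (-1.06, limma adjusted p = 0.185). A second Rdh10 probe set fell in both, with log2 differences of -1.27 ± 0.34 in culture (limma adjusted p = 0.00779) and -1.59 ± 0.39 in coculture (limma adjusted p = 0.005). The log2 differences of -0.72 ± 0.37 after bile duct ligation and -0.88 ± 0.37 after CCl4 were not called (limma adjusted p = 0.204 and 0.0979), the second being called without quiescent replicate 3 (-1.08, limma adjusted p = 0.0456).

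Dhrs3 levels were 7.70 and 8.42 in coculture and 6.61, 6.95 and 7.70 in culture. They were 5.86, 7.37 and 8.64 after bile duct ligation and 6.32, 5.49 and 6.07 after CCl4, against 5.01, 5.65, 4.00, 4.09 and 5.33 in quiescent cells. Each coculture, culture and bile duct ligation array was above the highest quiescent array, whereas CCl4 replicate 2 fell inside the quiescent range. Group means ran from 8.06 ± 0.51 (SD, n = 2) in coculture over 7.29 ± 1.39 (SD, n = 3) after bile duct ligation, 7.09 ± 0.56 (SD, n = 3) in culture and 5.96 ± 0.42 (SD, n = 3) after CCl4 to 4.82 ± 0.74 (SD, n = 5) in quiescent cells, and neighbours in this order overlapped except culture and CCl4.

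Against quiescent cells Dhrs3 rose by 3.24 ± 0.59 in coculture (log2 difference ± SE, limma adjusted p = 0.000678), 9.47-fold. It rose by 2.27 ± 0.52 in culture (limma adjusted p = 0.00268) and by 2.48 ± 0.52 after bile duct ligation (limma adjusted p = 0.0038). Among the 5 tested genes it was the one called higher after bile duct ligation. The log2 difference after CCl4, 1.14 ± 0.52, was not called (limma adjusted p = 0.13). Dhrs3 is itself known to be induced by retinoic acid.

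Aldh1a1 encodes a retinaldehyde dehydrogenase, which oxidises retinal to retinoic acid. Its levels were 8.16 and 9.16 in coculture and 11.80, 11.53 and 11.90 in culture. They were 6.98, 5.03 and 6.68 after bile duct ligation and 7.55, 7.35 and 8.34 after CCl4, against 7.57, 7.87, 8.45, 6.56 and 8.39 in quiescent cells. The culture arrays stood clear of all others, the coculture and CCl4 arrays overlapped the quiescent range, and the bile duct ligation arrays reached into its lower end.

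Aldh1a1 averaged 11.74 ± 0.19 (SD, n = 3) in culture, against 7.77 ± 0.77 (SD, n = 5) in quiescent cells, and rose by 3.98 ± 0.45 (log2 difference ± SE, limma adjusted p = 1.11e-05), 15.7-fold. In coculture, at 8.66 ± 0.70 (SD, n = 2), the log2 difference from quiescent cells was 0.89 ± 0.52 (limma adjusted p = 0.189). After bile duct ligation, at 6.23 ± 1.05 (SD, n = 3), Aldh1a1 fell by 1.54 (SE 0.45, limma adjusted p = 0.0293). This call was lost without bile duct ligation replicate 2 (log2 difference -0.94, limma adjusted p = 0.182), without quiescent replicate 2 (-1.51, limma adjusted p = 0.0522), 3 (-1.37, limma adjusted p = 0.0635) or 5 (-1.38, limma adjusted p = 0.0662), and in a fit to the arrays of those groups alone (-1.54, limma adjusted p = 0.0749). After CCl4, at 7.75 ± 0.52 (SD, n = 3), the log2 difference from quiescent cells was -0.02 ± 0.45 (limma adjusted p = 0.982).

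**Figure D2:**
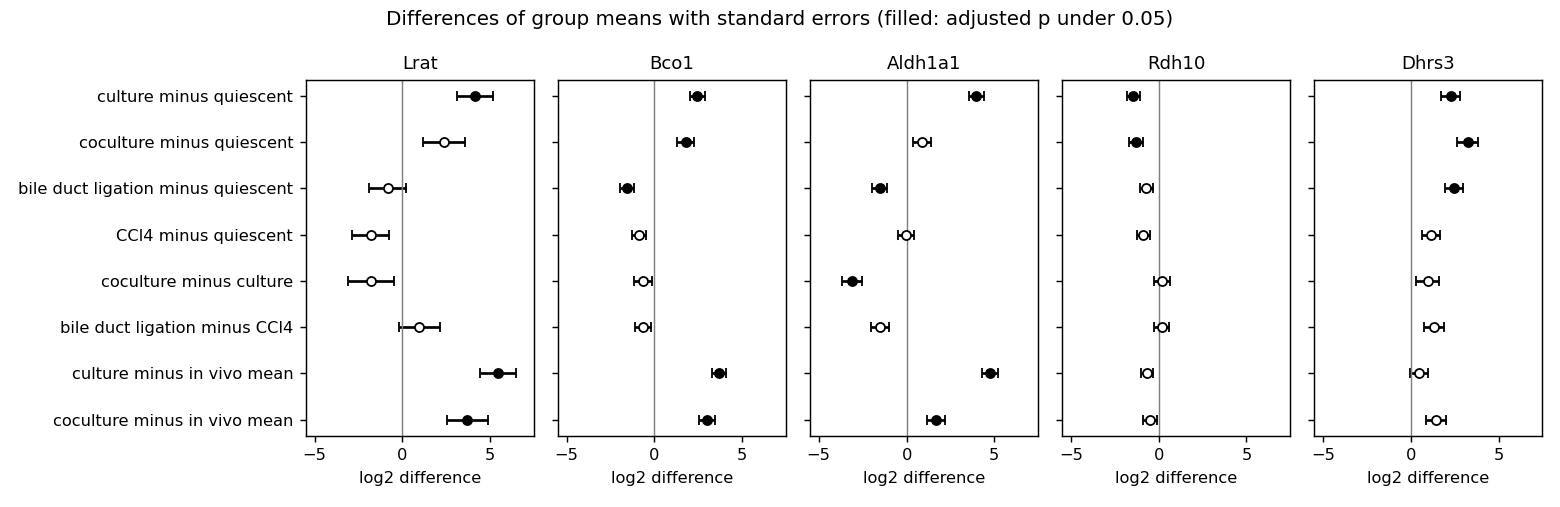
Log2 differences between group means with their standard errors for the 5 tested genes in 8 comparisons. Filled points have a limma adjusted p under 0.05. Aldh1a1 has the one filled point in coculture minus culture, at -3.08.

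Of the 5 tested genes, 5 were called in culture minus quiescent, 4 higher and 1 lower, where 42.1% of all tested genes were called, 18.5% higher and 23.5% lower. In coculture minus quiescent 3 were called, 2 higher and 1 lower, against 38.7% of all tested genes, 17.8% higher and 20.9% lower. In bile duct ligation minus quiescent 3 were called, 1 higher and 2 lower, against 16.9% of all tested genes, 8.03% higher and 8.83% lower. In CCl4 minus quiescent limma called 0, against 22.0% of all tested genes, and 3 of the 5 had an unadjusted p under 0.05 (Rdh10, Dhrs3 and Bco1). The share of all tested genes under that unadjusted threshold was not counted, so the 3 of 5 has no background beside it. The median log2 difference of the 5 was 2.45 in culture, 1.78 in coculture, -0.84 after bile duct ligation and -0.88 after CCl4, beside medians between -0.05 and -0.04 over all tested genes.

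The presence of Kupffer cells across the insert was addressed by coculture minus culture. Aldh1a1 was the 1 of 5 tested genes called, where 15.4% of all tested genes were, 8.37% higher and 7.03% lower. It fell by 3.08 on the log2 scale (SE 0.57, limma adjusted p = 0.00208), an 8.47-fold difference, and both coculture arrays lay below all culture arrays. The call held without either coculture array, with log2 differences between -3.58 and -2.58 over all alternatives. The log2 differences of Lrat (-1.77 ± 1.30), Bco1 (-0.67 ± 0.51), Dhrs3 (0.97 ± 0.65) and Rdh10 (0.17 ± 0.46) were not called (limma adjusted p between 0.35 and 0.84), and Lrat's ranged from -0.22 without coculture replicate 2 to -3.31 without coculture replicate 3. The mean of the 12 stellate markers was lower on both coculture arrays, at 7.24 and 8.75, than on the culture arrays, at 9.08 to 9.85. It was lowest on coculture replicate 2, which also had the lower Lrat level of its group. The part of this marker difference in the results of this comparison, that of Aldh1a1 included, was not tested.

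Activation on plastic was set against activation in the animal by comparing culture with the mean of the bile duct ligation and CCl4 groups. Aldh1a1, Bco1 and Lrat were higher in culture, 3 of 5, where 50.9% of all tested genes were called, 25.0% higher and 25.9% lower. The log2 differences were 4.75 ± 0.44 for Aldh1a1 (limma adjusted p = 1.09e-06), 3.67 ± 0.40 for Bco1 (limma adjusted p = 4.32e-06) and 5.46 ± 1.01 for Lrat (limma adjusted p = 0.0004), and every culture array exceeded every injury array for each of these genes. The share of all tested genes with no overlap between culture and injury arrays was not counted. The calls of Aldh1a1, Bco1 and Lrat held under all alternatives tried. Dhrs3 (0.46) and Rdh10 (-0.66) were not called (limma adjusted p = 0.462 and 0.133).

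The same genes were higher in coculture than in the injury groups, 3 of 5, where 30.3% of all tested genes were called, 15.0% higher and 15.3% lower. Bco1 was higher by 3.00 ± 0.46 (log2 difference ± SE, limma adjusted p = 0.000291), Lrat by 3.69 ± 1.16 (limma adjusted p = 0.0256) and Aldh1a1 by 1.67 ± 0.51 (limma adjusted p = 0.0215). The coculture and injury arrays overlapped for Lrat and Aldh1a1. Without coculture replicate 3 the Lrat and Aldh1a1 calls were lost, at log2 differences of 2.15 (limma adjusted p = 0.359) and 1.17 (limma adjusted p = 0.263). Lrat was also not called with its second probe set (2.20, limma adjusted p = 0.112) or the mean of both (2.95, limma adjusted p = 0.054). Dhrs3, with a log2 difference of 1.43 ± 0.58, was not called (limma adjusted p = 0.0725), but was without bile duct ligation replicate 3 (1.77, limma adjusted p = 0.0169).

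Between the injury models limma called 0 of the 5 tested genes, where 0.166% of all tested genes were called. Aldh1a1 was at 6.23 ± 1.05 after bile duct ligation and 7.75 ± 0.52 after CCl4 (SD, n = 3 each), and Dhrs3 at 7.29 ± 1.39 after bile duct ligation and 5.96 ± 0.42 after CCl4 (SD, n = 3 each). These were the 2 genes with an unadjusted p under 0.05, with log2 differences of -1.52 ± 0.51 (limma adjusted p = 0.221) and 1.33 ± 0.58 (limma adjusted p = 0.317). The share of all tested genes under that unadjusted threshold was not counted.

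The 4 genes below the filter cover the carrier, its receptor, a second retinoic acid-forming enzyme and an intracellular carrier. Stra6, the membrane receptor for the retinol carrier, lay between 1.12 and 1.78 on all 16 arrays. Crabp2, which delivers retinoic acid to its nuclear receptors, lay between 1.67 and 2.85. Both stayed near the background level in every group, and in a fit without the filter neither was called in any of the 8 comparisons.

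**Figure D3:**
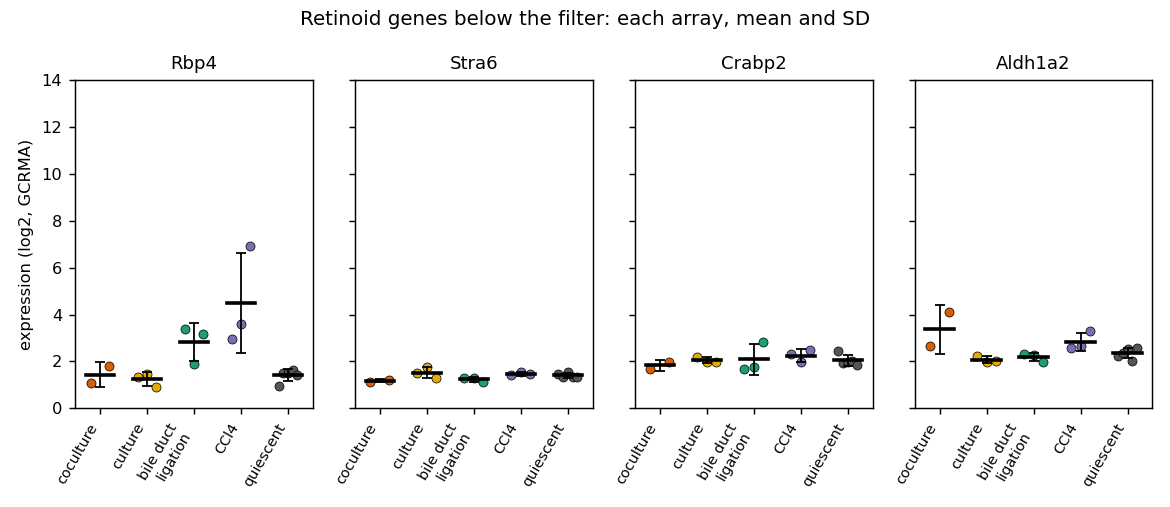
Expression level (log2) of the 4 retinoid genes below the filter on each array, with group means and SD, drawn as for the genes above the filter. Rbp4 reaches 6.91 on CCl4 replicate 3 and stays below 2 on the coculture, culture and quiescent arrays.

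Rbp4 encodes the plasma retinol carrier, which hepatocytes are known to secrete. Its levels were 1.07 and 1.82 in coculture and 1.35, 1.47 and 0.93 in culture. They were 3.39, 1.91 and 3.19 after bile duct ligation and 2.96, 3.60 and 6.91 after CCl4, against 0.96, 1.53, 1.52, 1.64 and 1.43 in quiescent cells. All injury arrays were above all quiescent arrays, and CCl4 replicate 3 stood alone. In the fit without the filter Rbp4 was higher after CCl4 by 3.08 ± 0.60 (log2 difference ± SE, limma adjusted p = 0.00295), and by 1.87 without CCl4 replicate 3 (limma adjusted p = 0.00274). After bile duct ligation the log2 difference of 1.41 ± 0.60 was not called (limma adjusted p = 0.189), but was without CCl4 replicate 3 (limma adjusted p = 0.00609). Since Rbp4 starts near background in quiescent cells, these differences depend on the background estimate.

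Hepatocyte markers were higher on the same arrays. The mean log2 level of 13 markers lay between 1.51 and 1.80 in coculture, between 1.53 and 1.88 in culture, between 2.88 and 3.39 after bile duct ligation, between 3.31 and 5.82 after CCl4, and between 1.52 and 2.07 in quiescent cells. Of the 13, between 1 and 3 reached log2 5 after bile duct ligation and between 2 and 8 after CCl4, against 0 in coculture, culture and quiescent cells. Albumin (Alb) lay between 7.34 and 9.0 after bile duct ligation and between 7.94 and 10.79 after CCl4, against 1.84 to 3.75 in quiescent cells. Means of 11 mesothelial markers were likewise 3.07 to 3.59 after bile duct ligation and 3.72 to 5.47 after CCl4, against 1.5 to 1.81 in quiescent cells. After bile duct ligation 2 of the 11 reached log2 5, the keratin genes Krt8 (5.90 to 7.37) and Krt18 (6.96 to 7.82). Below them lay Wt1 at 3.63 to 4.87, Lrrn4 at 2.99 to 4.75, Msln at 2.25 to 3.02, Bnc1 at 1.72 to 2.28 and Upk3b at 0.96 to 1.59. After CCl4 between 2 and 6 of the 11 reached log2 5. There Krt8 was at 6.83 to 9.56, Krt18 at 7.80 to 9.96, Lrrn4 at 3.93 to 8.26 and Bnc1 at 4.46 to 7.04. Wt1 was at 3.69 to 5.96, Msln at 2.35 to 3.83 and Upk3b at 1.69 to 3.31. Means of 8 portal fibroblast markers were 3.10 to 3.56 after bile duct ligation and 3.19 to 3.98 after CCl4, against 1.88 to 2.15 in quiescent cells. Those of the 12 stellate cell markers were 8.07 to 8.24 after bile duct ligation and 7.68 to 8.40 after CCl4, against 8.40 to 9.45 in quiescent cells. Macrophage markers, given above, were also higher in both injury groups. CCl4 replicate 3 had the highest mean of the hepatocyte and mesothelial markers and the highest Rbp4. The part of these cell types in the Rbp4 levels, or in the other differences of the injury groups, was not tested.

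**Figure D4:**
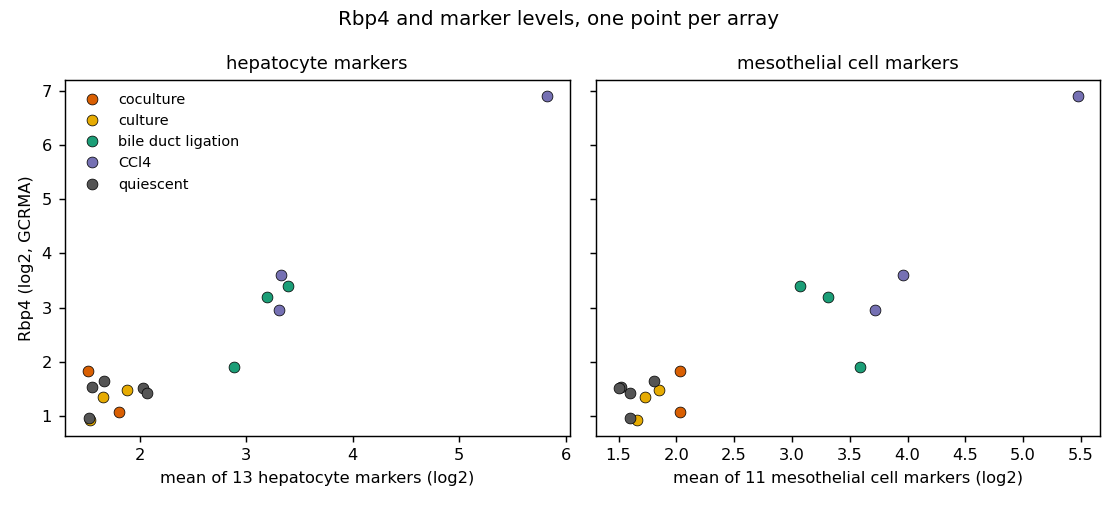
Rbp4 level (log2) on each of the 16 arrays against the mean level (log2) of 13 hepatocyte markers and of 11 mesothelial cell markers. Each point is an array coloured by group, and the point apart at the upper right of both panels is CCl4 replicate 3, with Rbp4 at 6.91.

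Aldh1a2 encodes a second retinaldehyde dehydrogenase. Its levels were 2.64 and 4.10 in coculture and 2.24, 1.96 and 2.04 in culture. They were 2.30, 2.28 and 1.99 after bile duct ligation and 2.56, 2.65 and 3.29 after CCl4, against 2.25, 2.38, 2.55, 2.03 and 2.57 in quiescent cells. Coculture replicate 3 was the highest of all 16 arrays. In the fit without the filter Aldh1a2 was called in coculture minus quiescent (log2 difference 1.01 ± 0.30, limma adjusted p = 0.0239) and in coculture minus culture (1.29 ± 0.33, limma adjusted p = 0.0217). Without coculture replicate 3 the log2 differences were 0.28 (limma adjusted p = 0.649) and 0.56 (limma adjusted p = 0.365). The second call was also lost without culture replicate 2 (limma adjusted p = 0.064) or replicate 3 (limma adjusted p = 0.0571).

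Around these genes, 64 others of retinoid uptake, storage, conversion, receptors and response were listed, of which 60 had a probe set and 27 passed the filter. Of the 27, 4 rose and 2 fell in culture minus quiescent, 7 rose and 4 fell in coculture minus quiescent, 2 rose and 2 fell in bile duct ligation minus quiescent, and 3 rose and 5 fell in CCl4 minus quiescent. In coculture minus culture 1 rose and 2 fell. The rises after bile duct ligation were Cd36 and Ttr, which were also among the CCl4 rises. Each passed the filter through injury arrays alone, so these rises are no independent support. The shares called in the injury groups include them. The share called was 22.2% in culture, 40.7% in coculture, 14.8% after bile duct ligation and 29.6% after CCl4, each against quiescent cells, beside 42.1%, 38.7%, 16.9% and 22.0% of all tested genes. In coculture minus culture it was 11.1%, beside 15.4% of all tested genes. Limma called 0 between the injury models, where 6 had an unadjusted p under 0.05 (Ttr, Lrp1, Dgat1, Nr2f1, Nr2f2 and Rxra). Of all tested genes 0.166% were called there, and the share under the unadjusted threshold was not counted. The median log2 difference of all 27 tested pathway genes from quiescent cells lay between -0.08 and 0.19.

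In the uptake and transport list, 6 of 12 genes were tested. Lpl, a lipase that releases fatty acids and retinyl esters from lipoproteins, stood at 12.08 and 12.68 in coculture and 11.90, 12.28 and 12.28 in culture, against 10.31, 10.58, 10.75, 9.13 and 10.79 in quiescent cells. It rose by 2.07 ± 0.33 in coculture (log2 difference ± SE, limma adjusted p = 0.000242) and by 1.84 ± 0.29 in culture (limma adjusted p = 0.000163). Lrp1, a receptor that takes up lipoprotein remnants, fell by 2.33 in coculture, 2.15 in culture and 1.34 after CCl4 on the log2 scale (limma adjusted p = 4.38e-05, 2.05e-05 and 0.00224). These genes of lipoprotein retinoid uptake went in opposite directions on plastic. Scarb1, a scavenger receptor that takes up lipoprotein lipids and carotenoids, rose by 0.92 ± 0.17 in coculture (log2 difference ± SE, limma adjusted p = 0.000726). In culture it was called at 0.39 ± 0.15 (limma adjusted p = 0.0442), a call lost under 16 alternatives, with limma adjusted p between 0.0525 and 0.144.

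Fabp5, a fatty acid carrier that can also bind retinoic acid, was at 11.30 and 12.03 in coculture and 10.23, 9.93 and 9.52 in culture, against 9.82, 9.50, 9.27, 10.14 and 9.51 in quiescent cells. It rose in coculture against quiescent cells by 2.02 ± 0.28 (log2 difference ± SE, limma adjusted p = 6.92e-05) and against culture by 1.77 ± 0.30 (limma adjusted p = 0.00118). Cd36, a fatty acid and carotenoid transporter, rose by 3.97 ± 0.66 after bile duct ligation (limma adjusted p = 0.000692) and by 2.48 ± 0.66 after CCl4 (limma adjusted p = 0.0145). Quiescent cells had Cd36 at 1.37 to 2.07, no higher than background, so the sizes depend on the background estimate. Cd36 reached log2 5 on bile duct ligation replicates 1 and 2 alone, at 6.41 and 7.06. It was therefore tested only through a group in which it is high. The highest Cd36 level, 7.06, was on bile duct ligation replicate 2, the array with the highest macrophage and endothelial marker means, whose part in the result was not tested. Its CCl4 call was lost without CCl4 replicate 1 (2.13, limma adjusted p = 0.0913) or replicate 3 (2.18, limma adjusted p = 0.0669). Ttr, the plasma partner of Rbp4 and one of the hepatocyte markers above, rose by 4.85 ± 0.60 after CCl4 (limma adjusted p = 5.15e-05) and by 2.49 ± 0.60 after bile duct ligation (limma adjusted p = 0.0093). The bile duct ligation call of Ttr was lost without bile duct ligation replicate 1 (2.15, limma adjusted p = 0.0648) and with the mean of its probe sets (1.38, limma adjusted p = 0.0967). In quiescent cells Ttr was near background, at 1.04 to 2.99. Ttr reached log2 5 on injury arrays alone, so it too was tested only through groups in which it is high.

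The ester hydrolysis and droplet list had 6 of 11 genes tested. Lipa, the lysosomal acid lipase, fell in coculture, bile duct ligation and CCl4 cells against quiescent cells, by 0.76, 0.69 and 0.82 on the log2 scale (limma adjusted p = 0.00738, 0.0129 and 0.00368). The coculture call was lost without coculture replicate 2 (-0.52, limma adjusted p = 0.141), and the bile duct ligation call without replicate 1 (-0.63, limma adjusted p = 0.0679) or 3 (-0.64, limma adjusted p = 0.0529) of that group and with another choice of probe set (-0.28, limma adjusted p = 0.299). Abhd5, the coactivator of adipose triglyceride lipase, rose by 1.03 ± 0.21 in coculture (limma adjusted p = 0.00151). Over the alternatives this log2 difference ranged from 0.32 to 1.17. Against quiescent cells the lipid droplet coat gene Plin2 was not called in any group, with log2 differences of 0.33 in coculture, 0.30 in culture, -0.24 after bile duct ligation and -0.01 after CCl4. It was called higher in culture than in the injury mean (log2 difference 0.42, limma adjusted p = 0.0123) and in coculture than in the injury mean (0.45, limma adjusted p = 0.0285). The first call was lost without culture replicate 2 or 3 (limma adjusted p = 0.0547 and 0.0538), and the second was 0.21 without coculture replicate 2 (limma adjusted p = 0.409) and also lost without bile duct ligation replicate 1 or 3 or CCl4 replicate 3 (limma adjusted p between 0.0511 and 0.0533). Of 5 other retinol and retinal redox enzymes tested, Rdh13 fell in culture by 0.70 (limma adjusted p = 0.00734) and Dhrs4 after CCl4 by 0.58 (limma adjusted p = 0.0222). The Dhrs4 call was lost without CCl4 replicate 2 (-0.60, limma adjusted p = 0.0535), CCl4 replicate 3 (-0.40, limma adjusted p = 0.129) or quiescent replicate 5 (-0.51, limma adjusted p = 0.054).

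Among the retinoid receptors, of which 4 of 6 were tested, Rarb and Rxra were called most often. Rarb encodes a retinoic acid receptor and is a classical retinoic acid target. Its levels were 9.84 and 9.67 in coculture and 8.69, 8.42 and 8.77 in culture. They were 6.98, 6.83 and 8.44 after bile duct ligation and 8.26, 7.82 and 7.87 after CCl4, against 6.92, 7.36, 6.35, 5.88 and 7.39 in quiescent cells. Coculture, culture and CCl4 arrays all exceeded the quiescent arrays. Rarb rose by 2.98 ± 0.42 in coculture (log2 difference ± SE, limma adjusted p = 8.15e-05), 1.85 ± 0.36 in culture (limma adjusted p = 0.000952) and 1.20 ± 0.36 after CCl4 (limma adjusted p = 0.0275). The CCl4 call was lost without any single CCl4 array or without quiescent replicate 3 (log2 differences between 1.07 and 1.29, limma adjusted p between 0.0545 and 0.13).

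Rxra encodes the RXR partner of these receptors. It was at 6.54 and 6.65 in coculture and 7.46, 7.59 and 7.73 in culture. It was at 6.96, 7.04 and 7.39 after bile duct ligation and 6.24, 6.89 and 6.82 after CCl4, against 8.37, 7.68, 8.04, 7.81 and 8.46 in quiescent cells. Each coculture and injury array lay below the quiescent range. Rxra fell by 1.48 in coculture (SE 0.23, limma adjusted p = 0.000194), by 0.94 after bile duct ligation (SE 0.20, limma adjusted p = 0.00421) and by 1.42 after CCl4 (SE 0.20, limma adjusted p = 0.000163) on the log2 scale. Against culture it fell in coculture by 1.00 (SE 0.25, limma adjusted p = 0.0143), a call lost without either coculture array (limma adjusted p = 0.118 and 0.0521). Rxrb, another RXR gene, fell in coculture by 0.90 (SE 0.29, limma adjusted p = 0.0215), a call lost without coculture replicate 3 (-0.68, limma adjusted p = 0.206).

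**Figure D5:**
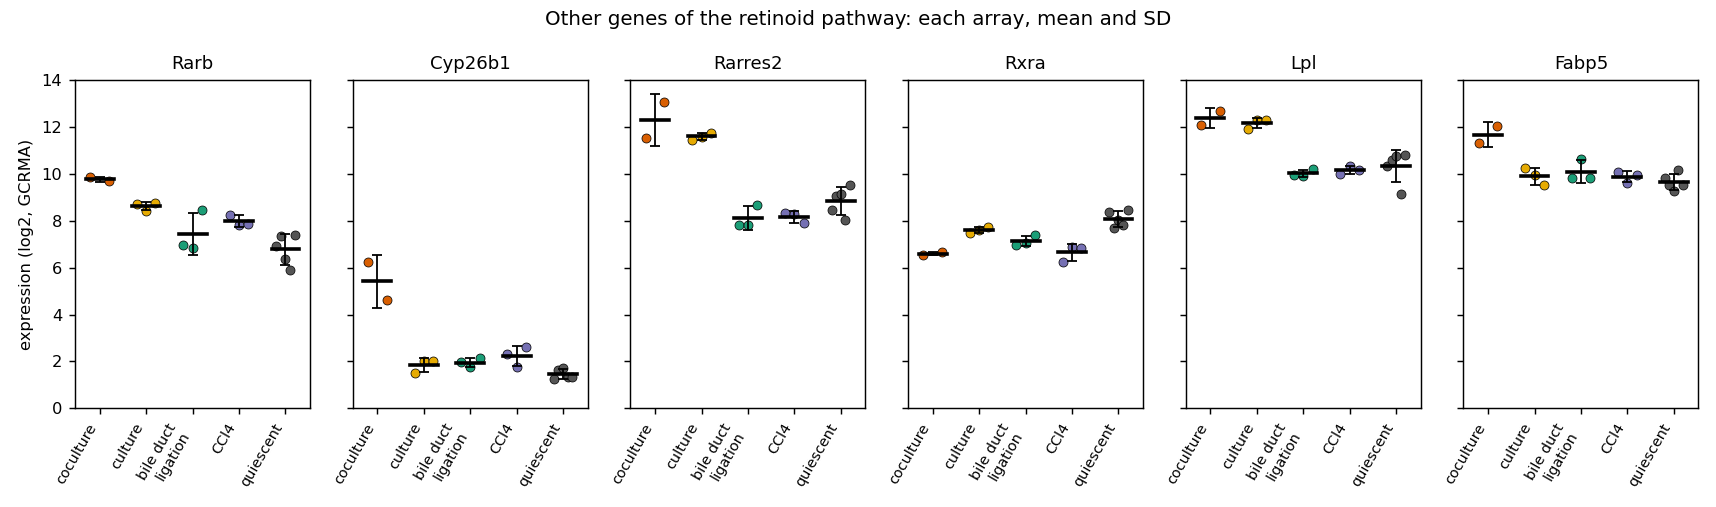
Expression level (log2) of 6 other genes of the retinoid pathway on each array, with group means and SD, in the same order of groups. The coculture arrays of Cyp26b1, at 6.22 and 4.60, are the ones above 2.61.

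In the retinoic acid response list 7 of 15 genes were tested. Rarres2, which encodes the secreted protein chemerin, was at 11.5 and 13.07 in coculture and 11.44, 11.58 and 11.73 in culture, against 8.47, 9.03, 9.14, 8.02 and 9.50 in quiescent cells. It rose by 3.45 ± 0.40 in coculture (log2 difference ± SE, limma adjusted p = 1.47e-05) and by 2.75 ± 0.35 in culture (limma adjusted p = 2.44e-05). Tgm2, the tissue transglutaminase, rose in coculture by 0.59 ± 0.14 (limma adjusted p = 0.00363), a call lost without coculture replicate 2 (0.47, limma adjusted p = 0.067) and with the mean of its probe sets (0.34, limma adjusted p = 0.234). The nuclear receptor gene Nr2f1 fell after CCl4 by 1.37 (limma adjusted p = 0.0391), a call lost without any single CCl4 array (limma adjusted p between 0.0545 and 0.174), without quiescent replicate 1, 2, 3 or 5 (between 0.0543 and 0.0832) or without culture replicate 2 (0.0505).

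Cyp26b1 encodes a cytochrome that breaks down retinoic acid. It was at 6.22 and 4.60 in coculture, between 1.5 and 2.01 in culture, between 1.76 and 2.15 after bile duct ligation and between 1.76 and 2.61 after CCl4, against 1.25 to 1.73 in quiescent cells. With a single array above log2 5 it stayed below the filter. In the fit without the filter it was higher in coculture than in quiescent cells by 3.95 ± 0.32 (log2 difference ± SE, limma adjusted p = 4.28e-07) and than in culture by 3.57 ± 0.35 (limma adjusted p = 1e-05), and both calls held when any single array was left out. Quiescent and culture cells had Cyp26b1 no higher than background, so the sizes depend on the background estimate. Cyp26a1, a related enzyme, averaged between 1.35 and 1.46 in the 5 groups and was not called in any comparison.

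The promoters of Rarb and Cyp26a1 each held a direct repeat with a spacer of 5, whereas the Cyp26b1 window held none of the searched repeats. They are shown because these genes, which share the repeat, had unlike levels, Rarb higher in coculture and culture and Cyp26a1 near background throughout. Windows of the other listed pathway genes are not given here. A match is no evidence of a binding site, and no relation between repeats and levels was tested. The Rarb window is chr14:16575427-16575726 on the minus strand, with the match from -53 to -37 in capitals. The Cyp26a1 window is chr19:37697558-37697857 on the plus strand, with the match, read on the opposite strand, from -32 to -16 in capitals.
Rarb: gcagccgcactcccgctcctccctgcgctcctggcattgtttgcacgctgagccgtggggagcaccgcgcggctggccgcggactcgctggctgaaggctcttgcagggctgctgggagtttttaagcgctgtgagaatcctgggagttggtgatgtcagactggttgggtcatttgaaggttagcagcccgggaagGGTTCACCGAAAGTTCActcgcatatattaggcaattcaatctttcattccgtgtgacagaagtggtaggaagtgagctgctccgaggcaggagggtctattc
Cyp26a1: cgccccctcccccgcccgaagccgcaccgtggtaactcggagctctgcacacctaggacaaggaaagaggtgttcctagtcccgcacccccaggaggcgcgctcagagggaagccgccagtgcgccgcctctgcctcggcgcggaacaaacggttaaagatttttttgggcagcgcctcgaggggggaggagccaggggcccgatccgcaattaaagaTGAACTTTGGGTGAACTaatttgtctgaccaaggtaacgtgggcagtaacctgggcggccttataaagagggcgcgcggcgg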

How the data were processed

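RNA of the 16 stellate cell preparations was hybridised to 1 oligonucleotide array each. The authors deposited log2 values per probe set. GCRMA, which subtracts a sequence-modelled background and normalises arrays by quantiles, is named in the submitters' processing notes, and its version is not given in the sources used here. No detection calls were used, and the number of arrays limits the precision. Gene names came from the platform annotation. Probe sets with several symbols or none and control probe sets were left out.

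One model of 5 group means was fitted with limma 3.58.1 in R 4.3.3 (lmFit, eBayes with a trend), with two-sided contrasts and Benjamini-Hochberg adjustment over 7823 genes, and the step was tested on simulated data. The injury mean weights both injury groups equally. Named were all 9 members, pathway genes called in a comparison, with Cyp26a1, Cyp26b1, Dgat1 and Nr2f2 added after their values were seen, and the 3 genes most alike in profile per tested member, skipping unnamed clones. Members and lists were chosen with earlier results of these data known. Alternatives covered the filter, probe set choice, centring, array weights, the arrays fitted, a replicate block and leaving out arrays. The second probe sets and the leave-one-out fits without a filter, were chosen after seeing the data. Promoter sequences are from RefSeq (GRCm38.p6).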

Additional observations from a re-analysis of the deposited data

Results flagged for a closer look

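Each value here is a log2 difference whose own contrast was tested and called by limma. Aldh1a1 differed between the forms of 5 day culture, with coculture minus culture at -3.08. Culture and the injuries, both set against quiescent cells, differed for Aldh1a1 (culture minus the injury mean 4.75), Bco1 (3.67) and Lrat (5.46). Coculture and the injuries differed for Aldh1a1 (1.67), Bco1 (3.00) and Lrat (3.69). For Aldh1a1 and Lrat the coculture and injury arrays overlapped. Without coculture replicate 3 their log2 differences were 1.17 and 2.15. No quiescent array of the 9 genes stood apart from the others of its group by Dixon's test, which was run for the quiescent group alone because the other groups have 2 or 3 arrays.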

How the results depend on the processing

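The 40 differences of the 5 tested genes were recomputed under 27 alternatives, giving 1071 values, of which 1034 kept their direction and side of the threshold. Calls were lost in 16 values and gained in 5. The sign changed in 16, none called in either setting. No gene of the 5 was called between the injury models under any alternative.

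The members called in CCl4 minus quiescent, 0 of 5, became 1 of 9 without the filter (Rbp4) and 1 in a fit to those groups alone. In coculture minus culture 1 became 2 without the filter (Aldh1a2 added). In bile duct ligation minus quiescent 3 became 1 in a fit to those groups alone. Leaving out 1 array gave 0 to 1 for CCl4, 1 to 3 for bile duct ligation and 1 to 3 for coculture, each against quiescent cells, and 1 to 4 for coculture minus the injury mean. It left 5 for culture minus quiescent, 3 for culture minus the injury mean and 1 for coculture minus culture.

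Signs changed for Rdh10 in coculture minus culture (-0.08 with the mean of its probe sets, -0.33 with its second probe set, chosen either by class or directly, -0.06 to 0.40 when 1 array was left out) and in bile duct ligation minus CCl4 (-0.06 with array weights, -0.23 to 0.42 when 1 array was left out). They changed for Aldh1a1 in CCl4 minus quiescent, at 0.04 with arrays centred and -0.32 to 0.18 when 1 array was left out. Leaving out 1 array gave Lrat -2.34 to 0.04 in bile duct ligation minus quiescent and -0.53 to 1.85 in bile duct ligation minus CCl4, and Bco1 -1.27 to 0.00 in bile duct ligation minus CCl4. Rdh10 was called in culture minus the injury mean with array weights (-0.73, limma adjusted p = 0.0199). The cause of these changes was not tested.

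Over all tested genes, bile duct ligation minus CCl4 gave 13 calls, 43 without the filter, 4 with a filter at log2 7, 20 with probe set means, 173 with array weights, 32 in a fit to those groups alone, 7 with 3 arrays left out at once (culture replicate 3, CCl4 replicate 3, quiescent replicate 4), and 3 to 20 without 1 array. Coculture minus culture gave 1205, 598 in a fit to those groups alone and 412 to 1399 without 1 array. Leaving out 1 array gave 1816 to 3123 for coculture (3031), 769 to 1429 for bile duct ligation (1319) and 869 to 1884 for CCl4 (1719), each against quiescent cells, and 1004 to 2601 for coculture minus the injury mean (2374).

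Replicate numbers were not used as pairs in the main fit, and 7 of 26 same-numbered pairs had a correlation of deviations over 0.1. Between culture and coculture these correlations were 0.3087 for replicate 2 and 0.5365 for replicate 3. Deviations of the 2 coculture arrays mirror each other, and culture replicate 1 with coculture replicate 2 was at 0.4497. Whether culture and coculture preparations were paired can therefore not be told from these values. With the number as a replicate block Rdh10 in coculture minus quiescent was no longer called (-1.06, limma adjusted p = 0.0532), and no other call among the 40 changed.

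The 4 genes near background have levels set largely by the background estimate. With 2 coculture arrays, leaving 1 out assumes that the other varies like the remaining groups.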

Other observations

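The genes most alike to each tested member were found by the root-mean-square difference between log2 profiles over the 16 arrays, each centred on its own mean. These are descriptions of 16 arrays that share groups and normalisation. For Lrat, whose own profile deviates from its mean by 2.50, they were Septin4, a cytoskeletal septin (1.23), Cyp27a1, a mitochondrial sterol hydroxylase (1.24), and Prelp, a matrix proteoglycan (1.27). For Bco1 (own deviation 1.54) they were Aff3 (0.62), Art3 (0.66) and Hsd11b1, which regenerates active glucocorticoid (0.69). For Aldh1a1 (1.88) they were Slc9a9, an endosomal sodium/proton exchanger (0.67), Rtn1 (0.81) and Ccdc141 (0.83). For Dhrs3 (1.36) they were Dkk3, a secreted Dickkopf family protein (0.74), Rftn1 (0.76) and the integrin gene Itgb5 (0.77). For Rdh10 (0.72) they were Vps16, a vesicle sorting subunit (0.36), Shb (0.41) and the cochaperone gene Bag3 (0.41).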
